A study of Mus musculus with 18 samples.

Results

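The genes described here are 39 genes of DNA repair in mouse lung, sorted by the pathway they serve: 10 of nucleotide excision repair, 13 of base excision repair, Mgmt of direct reversal, 3 of mismatch repair and 12 of the repair and sensing of chromosome breaks. They were chosen by gene symbol, and each was represented by its single-symbol probe set with the highest mean over 18 arrays, which gave 38 of the 18193 genes that such probe sets name. Neil2 was not named by a single-symbol probe set. Of the 38 genes, 35 passed the filter on low signals and were tested among 13434 genes. Ercc6, Ung and Brca1 did not pass.

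Affymetrix Mouse 430_2 arrays measured the RNA of right lung lobes from female B6C3F1 mice, an F1 hybrid common in rodent cancer bioassays, dosed from 5 weeks of age for 13 weeks and sampled at 18 weeks. The labels give 1 animal per array and 3 animals per group, so that the p-values measure the spread between animals. Among mice fed 7 days a week, 1 group was the feed control, and the others received 1,5-naphthalenediamine (NDA) at 2000 ppm, N-(1-naphthyl)ethylenediamine dihydrochloride (NEDD) at 2000 ppm or pentachloronitrobenzene (PCNB) at 8187 ppm. Gavage groups were dosed 5 days a week with corn oil at 5 ml/kg, alone (corn oil control) or with 2,3-benzofuran at 240 mg/kg. NDA and benzofuran are labelled positive for lung tumours, NEDD and PCNB negative. The series sets lung transcripts after 13 weeks against the tumour outcome of long rodent bioassays.

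Cells mend DNA by routes that differ in the lesion they accept. Nucleotide excision repair cuts out a stretch of strand around bulky adducts and ultraviolet photoproducts, whereas base excision repair removes single oxidised, alkylated or deaminated bases through a glycosylase, a nuclease, a polymerase and a ligase. Mgmt pulls an alkyl group off guanine directly, mismatch repair corrects errors of replication, and chromosome breaks are rejoined end to end or copied from the sister chromatid. In human cells the p53 pathway is known to raise transcripts of XPC and DDB2 after DNA damage, while much of the rest of the machinery is regulated through the proteins. Whether p53 acts on Ddb2 in mouse lung was not tested.

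Signals are log2 values as deposited, and a difference of 1 is a doubling if the logarithm is to base 2, as the range of 2.48 to 14.78 was read. Differences are group means in limma, given ± standard error with n = 3 arrays a group, and adjusted p is Benjamini-Hochberg over the 13434 genes with a threshold of 0.05. The array of benzofuran animal 10 stood apart: its actin probe sets had a 3' minus 5' difference of 0.91 (0.33 to 0.73 on the other arrays), and it was the farthest of its group from the group mean in 23 of the 35 genes. Differences of single genes that it turned in sign or moved by 1.5 times or more are also given without it, an exclusion chosen after the data were seen. Lung identity was checked by defining markers: the alveolar list (Sftpc and others) averaged 12.93 to 13.21 on every array and the club cell list 13.88 to 14.16, while the liver list averaged 5.13 to 5.64. A whole lobe holds many cell types, and fewer cells of a type cannot be told apart from less RNA per cell.

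Most repair transcripts were readily measured. Of the 35 tested genes, 34 lay above the 40th percentile of signal on all 18 arrays, and Fancd2, a scaffold of crosslink repair, did so on 6. Mean signals over the 18 arrays ran from 4.919 for Fancd2 to 10.41 for Ddb1, the damage-recognition adaptor that also serves a ubiquitin ligase. Probe sets differ in sensitivity, so these levels do not rank one gene against another. The untested Ercc6 (3.889), Ung (4.808) and Brca1 (4.375) lay above the 40th percentile on 0 arrays.

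The repair genes differed little between groups. Their median residual SD between animals was 0.158, against 0.163 over all tested genes, and the median range of their 6 group means was 0.28, against 0.285. Parp1, the enzyme that marks strand breaks with poly(ADP-ribose), had the smallest residual SD (0.045) and Atm, the kinase that signals breaks, the largest (0.317). The spread of Atm came from benzofuran animal 10, at 7.19 where the other 17 arrays lay between 8.13 and 8.63. Across the 6 groups, no repair gene passed limma's moderated F test, which 2.93% of all genes passed. In limma 1 had an unadjusted p under 0.05 (Xrcc5, adjusted p = 0.0908), against 15.3% of all genes.

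**Figure D1:**
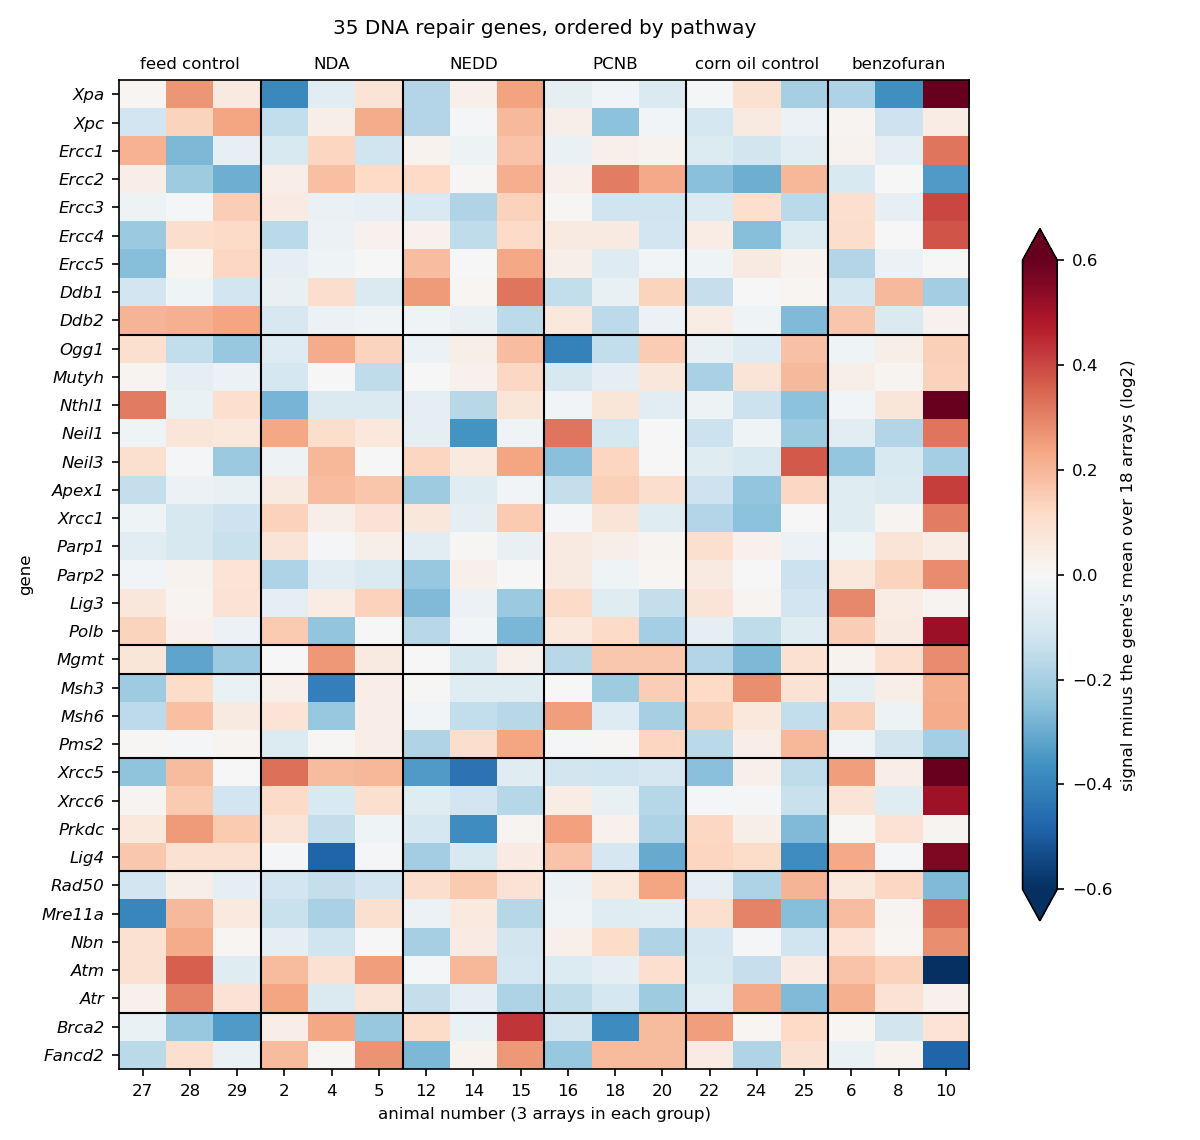
Each row is 1 of 35 DNA repair genes, each column 1 array named by its animal number, and colour is the log2 signal minus the gene's mean over the 18 arrays, with colours held at 0.6 beyond that value. Red is above and blue below the gene's mean: Ddb2 is red on the 3 feed control arrays, and Atm, at 7.19, is dark blue for benzofuran animal 10.

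Against its own control, no treatment gave a repair gene an adjusted p under 0.05. After NDA that was 0 of 35, beside 1.37% of all genes; 1 repair gene had an unadjusted p under 0.05 (10.3% of all genes), and the arrays of 9 (25.7%) did not overlap between the groups (21.1% of all genes). After NEDD the count was again 0, beside 0.0223% of all genes; 6 had an unadjusted p under 0.05 (17.1%, against 9.44% of all genes) and 9 did not overlap (25.7%, against 19.3%). PCNB gave 0, beside 0.0149% of all genes, with 3 at an unadjusted p under 0.05 (8.57%, against 2.97%) and 4 not overlapping (11.4%, against 8.54%). The genes at an unadjusted p under 0.05 were Ddb2 in all 3 comparisons, with Ddb1, Lig3, Prkdc, Atr and Brca2 after NEDD and Ercc2 and Atr after PCNB; whether these shares differ from the background was not tested.

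Benzofuran gave 0 of 35 against corn oil control, beside 1.73% of all genes. Unadjusted p was under 0.05 for 3 (8.57%, against 19.5% of all genes), and the arrays of 7 (20%) did not overlap (17.4% of all genes). Mean signals were higher with benzofuran in 25 of the 35, with a median difference of 0.11, beside 60.2% and 0.05 over all genes. Without benzofuran animal 10, 26 were higher with a median of 0.07 and 0 had an unadjusted p under 0.05, beside 11.4% of all genes.

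The corn oil and feed controls, which differ in route, vehicle and days of dosing but hold no chemical, gave the background: 0 of 35 repair genes and 0% of all genes passed, 2 repair genes had an unadjusted p under 0.05 (5.71%, against 2.02% of all genes), and 6 did not overlap (17.1%, against 7.23%). Median differences over the 35 genes were -0.02 for NDA, -0.03 for NEDD, -0.01 for PCNB and -0.06 for corn oil against feed, close to the -0.02 over all genes in each. The 3 feed treatments and the corn oil control were all set against the same 3 feed control animals, so these comparisons are not independent.

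For the probe set used per gene, the change that the spread between animals still allows is small. The 95% interval of the difference lay within 1.5-fold in either direction for 33 of 35 genes after NDA, 34 after NEDD, 32 after PCNB and 30 after benzofuran. All 35 intervals lay within 2-fold in each of these comparisons. Xpa and Lig4 were the exceptions at 1.5-fold after NDA, Brca2 after NEDD, Xpa, Ercc2 and Atm after PCNB, and Nthl1, Polb, Xrcc5, Lig4 and Atm after benzofuran. Among the probe sets used, the largest difference of a repair gene from its control was 0.42, or 1.34-fold, for Xrcc5 with benzofuran. The intervals do not cover differences between probe sets of a gene. Of 23 other probe sets that passed the filter, 13 shared the sign of the one used after NDA, NEDD and benzofuran each, and 16 after PCNB. Some went further, such as Parp1 at -0.58 with benzofuran and Polb at -0.49 after NEDD.

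**Figure D2:**
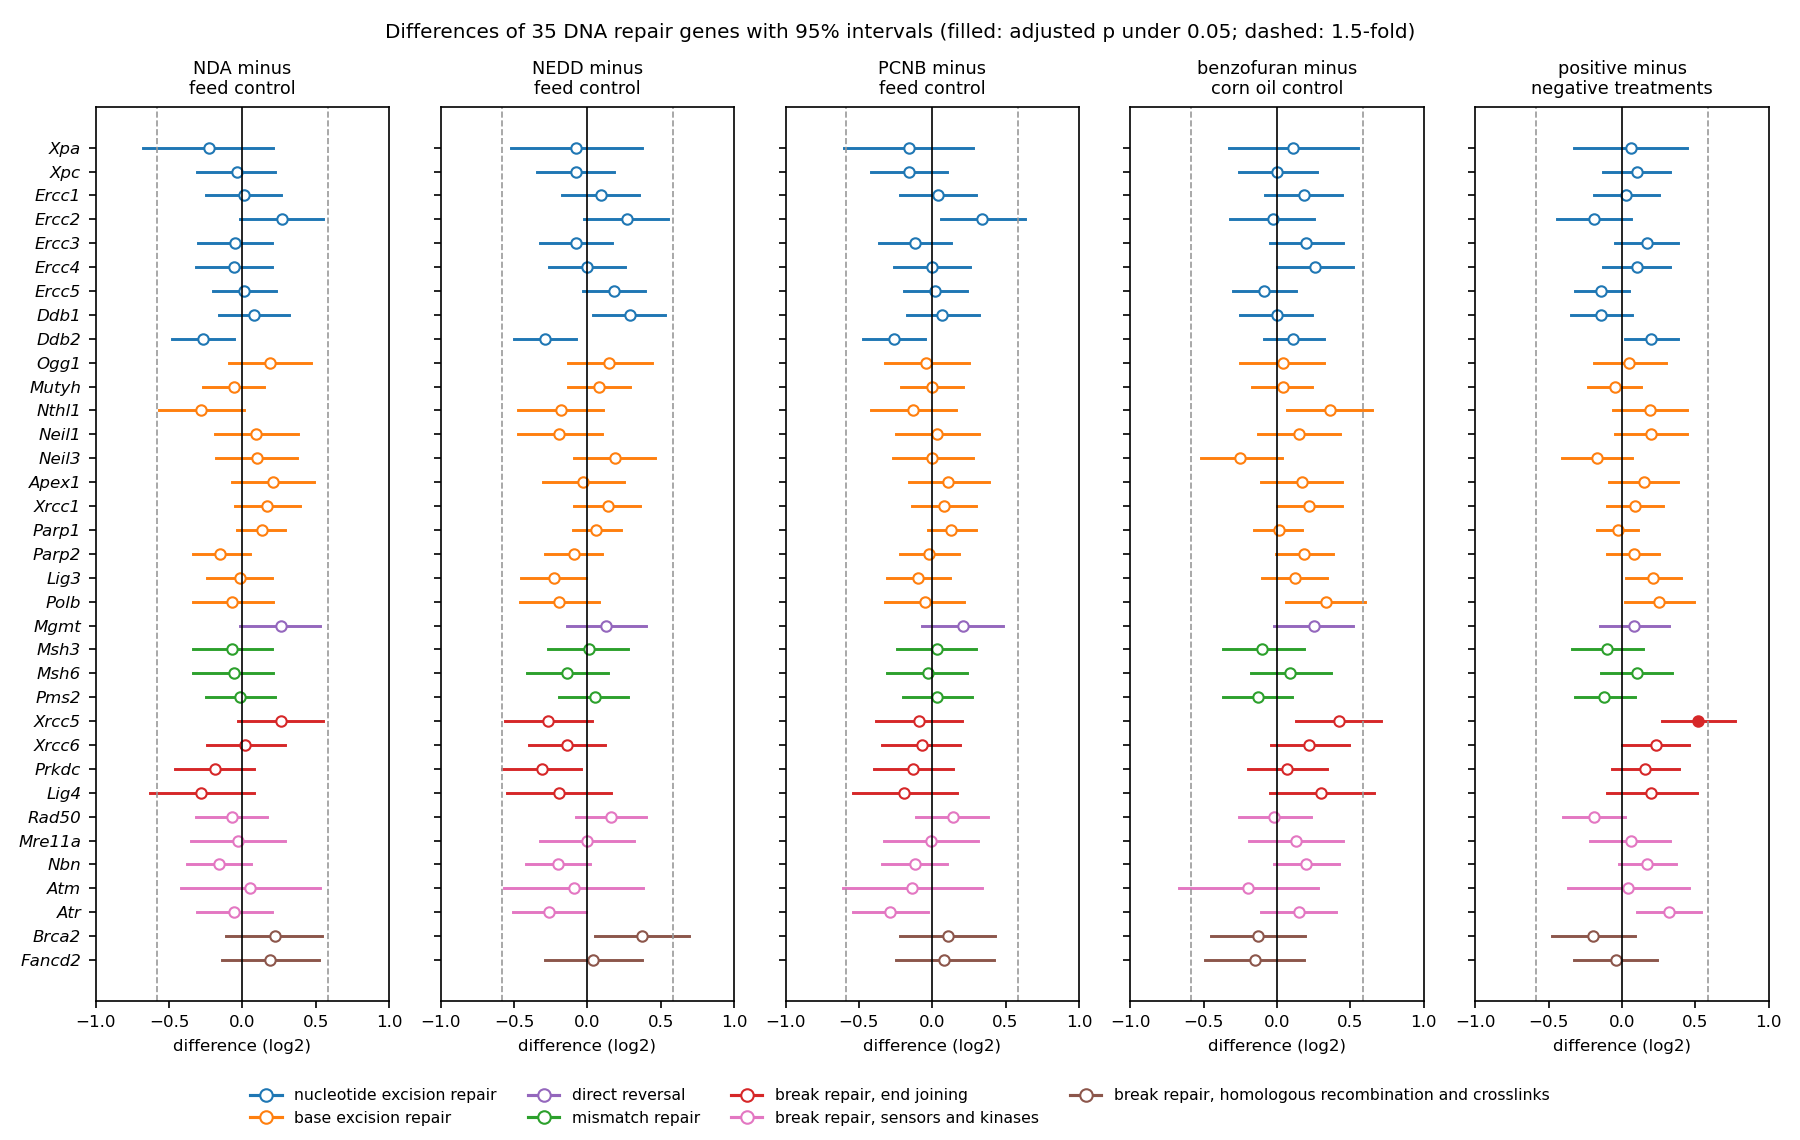
Points are differences in log2 signal of 35 DNA repair genes, bars their 95% intervals and colours their pathway; dashed lines mark 1.5-fold, and a filled point has an adjusted p under 0.05. The only filled point is Xrcc5 in the last panel, which sets the positive treatments (NDA, benzofuran) against the negative ones (NEDD, PCNB).

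In nucleotide excision repair, 9 of 10 genes were tested and 0 passed in any comparison. Median differences were -0.04 for NDA, 0.00 for NEDD, 0.00 for PCNB and 0.11 for benzofuran, with 4, 4, 5 and 6 of the 9 higher in the treated group; the benzofuran median was 0.07 without animal 10. The recognition factors Xpc and Xpa stayed within the spread of the animals: Xpc was 8.05, 8.23 and 8.42 after NDA and 8.08, 8.33 and 8.43 in feed control (-0.04 ± 0.12). Xpa differed by -0.23 ± 0.21 after NDA and by 0.11 ± 0.21 after benzofuran, where animal 10 gave 7.93 and the others 6.97 and 6.79; without animal 10 the benzofuran difference turned to -0.24 ± 0.14. Xpa has the widest uncertainty of the pathway for that reason.

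Ddb2, the subunit that finds ultraviolet photoproducts in chromatin, had the smallest p of this pathway in limma's F test (adjusted p = 0.344). Feed control signals were 7.35, 7.36 and 7.38. All 15 other arrays were lower, at 7.05, 7.11 and 7.12 after NDA, 7.12, 7.10 and 6.99 after NEDD, 7.21, 6.99 and 7.11 after PCNB, 7.19, 7.12 and 6.88 in corn oil control, and 7.31, 7.06 and 7.17 after benzofuran. The 3 feed control animals thus stood together above every treated animal and above the corn oil controls alike. Differences from feed control were -0.27 ± 0.10 for NDA (adjusted p = 0.276), -0.29 ± 0.10 for NEDD (0.462) and -0.26 ± 0.10 for PCNB (1.0). The corn oil control differed by -0.30 ± 0.10 (adjusted p = 1.0), as much as any chemical. A second Ddb2 probe set gave -0.33, -0.31, -0.32 and -0.36 in the same order. Against its own control, benzofuran gave 0.11 ± 0.10, a direction opposite to the feed treatments.

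Ercc2, a helicase of the TFIIH complex that opens the strands, was at 6.47, 6.22 and 6.14 in feed control and at 6.46, 6.74 and 6.66 after PCNB (0.34 ± 0.14, unadjusted p = 0.0207, adjusted p = 1.0). The lowest PCNB array lay just under the highest feed control array. NDA gave 6.47, 6.61 and 6.55 and NEDD 6.55, 6.44 and 6.65, both 0.27 ± 0.14 above feed control. Its other probe set gave 0.10, 0.27 and 0.30 for NDA, NEDD and PCNB. Corn oil control (6.18, 6.14 and 6.63) and benzofuran (6.34, 6.43 and 6.09) overlapped widely, with a difference of -0.03 ± 0.14 (0.07 ± 0.14 without animal 10).

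Ddb1 after NEDD was at 10.66, 10.42 and 10.73, above the 10.29, 10.38 and 10.29 of feed control (0.29 ± 0.12, adjusted p = 0.495). Its partner Ddb2 lay on the other side of feed control in the same animals. By the probe sets used, the nucleases that cut on either side of the lesion differed little. The largest of 12 differences from a control for Ercc1, Ercc4 and Ercc5 was 0.26 ± 0.12, for Ercc4 with benzofuran. It was 0.15 ± 0.12 without animal 10. Other probe sets that passed the filter on low signals gave -0.04 and -0.12 for Ercc4 and 0.31 and -0.09 for Ercc1 with benzofuran. Ercc3, the other helicase of TFIIH, ranged from -0.12 ± 0.12 after PCNB to 0.20 ± 0.12 after benzofuran, the latter 0.07 ± 0.11 without animal 10.

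Base excision repair had 11 of 13 genes tested, and 0 passed against a control. Medians were 0.09 for NDA, -0.03 for NEDD, 0.00 for PCNB and 0.15 for benzofuran. With benzofuran 10 of the 11 were higher than in corn oil control, but without animal 10 this was 8 of 11 with a median of 0.00. The per-array mean of the 11 genes, each centred on its own mean, was 0.23 on the array of animal 10 and 0.00 and 0.01 on the other benzofuran arrays, beside -0.08 to 0.04 in the controls.

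Nthl1, a glycosylase for oxidised pyrimidines, had the smallest p of this pathway in limma's F test (adjusted p = 0.41). It was lower after NDA on every array, 6.42, 6.61 and 6.61 against 7.01, 6.66 and 6.80 in feed control (-0.28 ± 0.14, adjusted p = 0.512), and it was -0.07 with a covariate for 3' bias. Corn oil control lay nearly as far below feed control, by -0.26 ± 0.14 (adjusted p = 1.0). NEDD (6.64, 6.53 and 6.77) and PCNB (6.68, 6.77 and 6.63) overlapped with feed control. With benzofuran it was higher, 6.68, 6.77 and 7.30 against 6.67, 6.57 and 6.45 in corn oil control (0.36 ± 0.14, adjusted p = 0.17), and animal 10 again held the top value. Without that animal the difference was 0.17 ± 0.11. The positive treatments NDA and benzofuran thus lay on opposite sides of their controls for this gene.

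Polb, the polymerase that fills the gap, was at 9.26, 9.17 and 9.63 after benzofuran and at 9.06, 8.96 and 9.04 in corn oil control (0.33 ± 0.13, adjusted p = 0.176). Without animal 10 it was 0.19 ± 0.12. The probe sets disagreed: of 3 others 1 gave 0.22 and the remaining ones -0.34 and -0.52, and the mean of all 4 gave -0.08. No direction can be given for Polb on these arrays. Lig3, the ligase that seals the nick, was at 7.04, 7.27 and 7.08 after NEDD and 7.37, 7.32 and 7.39 in feed control (-0.23 ± 0.10). Of its 4 other probe sets, those that passed the filter on low signals gave 0.00 and 0.01, and those that did not gave 0.42 and 0.17.

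Xrcc1, the scaffold that holds Lig3 and Polb, was at 7.33, 7.42 and 7.71 after benzofuran against 7.23, 7.16 and 7.40 in corn oil control (0.22 ± 0.10, adjusted p = 0.257). The lowest treated array lay below the highest control array, and without animal 10 the difference was 0.11. Xrcc1 after NDA was at 7.54, 7.44 and 7.49, above all feed control arrays (7.38, 7.31 and 7.28) by 0.17 ± 0.10. Parp1, by the probe set used, had the smallest spread between animals of the repair genes. It was at 8.82, 8.80 and 8.78 after PCNB against 8.70, 8.67 and 8.63 in feed control (0.13 ± 0.08), and these arrays did not overlap. Its 3 other probe sets gave 0.06, -0.05 and -0.02 for PCNB, and the mean of all 4 gave 0.03. With benzofuran the probe set used gave 0.01 and the 3 others 0.04, 0.40 and -0.58, so that the probe sets of Parp1 disagreed. Corn oil control, at 8.86, 8.79 and 8.73, was as high as PCNB.

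Apex1, the nuclease that opens the strand beside a lost base, was higher after NDA on every array (0.21 ± 0.13, adjusted p = 0.641). The glycosylase for oxidised guanine, Ogg1, differed by 0.19 ± 0.13 after NDA and by 0.04 ± 0.13 after benzofuran (-0.01 ± 0.15 without animal 10), while its other probe set gave 0.41 and 0.27. Mutyh, which removes adenine paired with oxidised guanine, kept within -0.06 and 0.08 of its control after the 4 treatments, all under its standard error of 0.10. Neil1 (0.09 ± 0.13) and Neil3 (0.10 ± 0.13), glycosylases of the same family, also overlapped between NDA and feed control, and Parp2, a second poly(ADP-ribose) polymerase, was between -0.15 ± 0.09 after NDA and 0.18 ± 0.09 after benzofuran (0.12 ± 0.09 without animal 10).

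Mgmt, the alkylguanine transferase, was at 6.57, 6.18 and 6.28 in feed control. NDA gave 6.50, 6.76 and 6.55 (0.26 ± 0.13, adjusted p = 0.526), NEDD 6.50, 6.40 and 6.53, and PCNB 6.33, 6.66 and 6.66. Corn oil control was at 6.32, 6.23 and 6.59 and benzofuran at 6.52, 6.60 and 6.78 (0.25 ± 0.13, adjusted p = 0.303). All 4 treated means lay above their control mean, while in each the arrays overlapped with those of the control.

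In mismatch repair, of Msh3, Msh6 and Pms2, 0 passed in any limma comparison, 0 had an unadjusted p under 0.05, and 0 had arrays that did not overlap. After the 3 feed treatments their differences from feed control ran from -0.14 to 0.05. Other probe sets that passed the filter on low signals went further: 1 of Pms2 gave 0.26 for NDA and 0.31 for NEDD, and 1 of Msh3 gave -0.37 for NDA. That Msh3 probe set gave -0.45 with benzofuran, where the one used gave -0.10. Msh3, a mismatch recognition protein that binds larger loops, had the smallest p of the 3 in limma's F test (adjusted p = 0.665). It was at 5.89, 6.21 and 6.06 in feed control, 6.13, 5.69 and 6.14 after NDA, 6.11, 6.03 and 6.03 after NEDD and 6.10, 5.89 and 6.25 after PCNB. Corn oil control gave 6.22, 6.38 and 6.19, and benzofuran 6.05, 6.14 and 6.32 (-0.10 ± 0.13, and -0.17 ± 0.14 without animal 10).

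**Figure D3:**
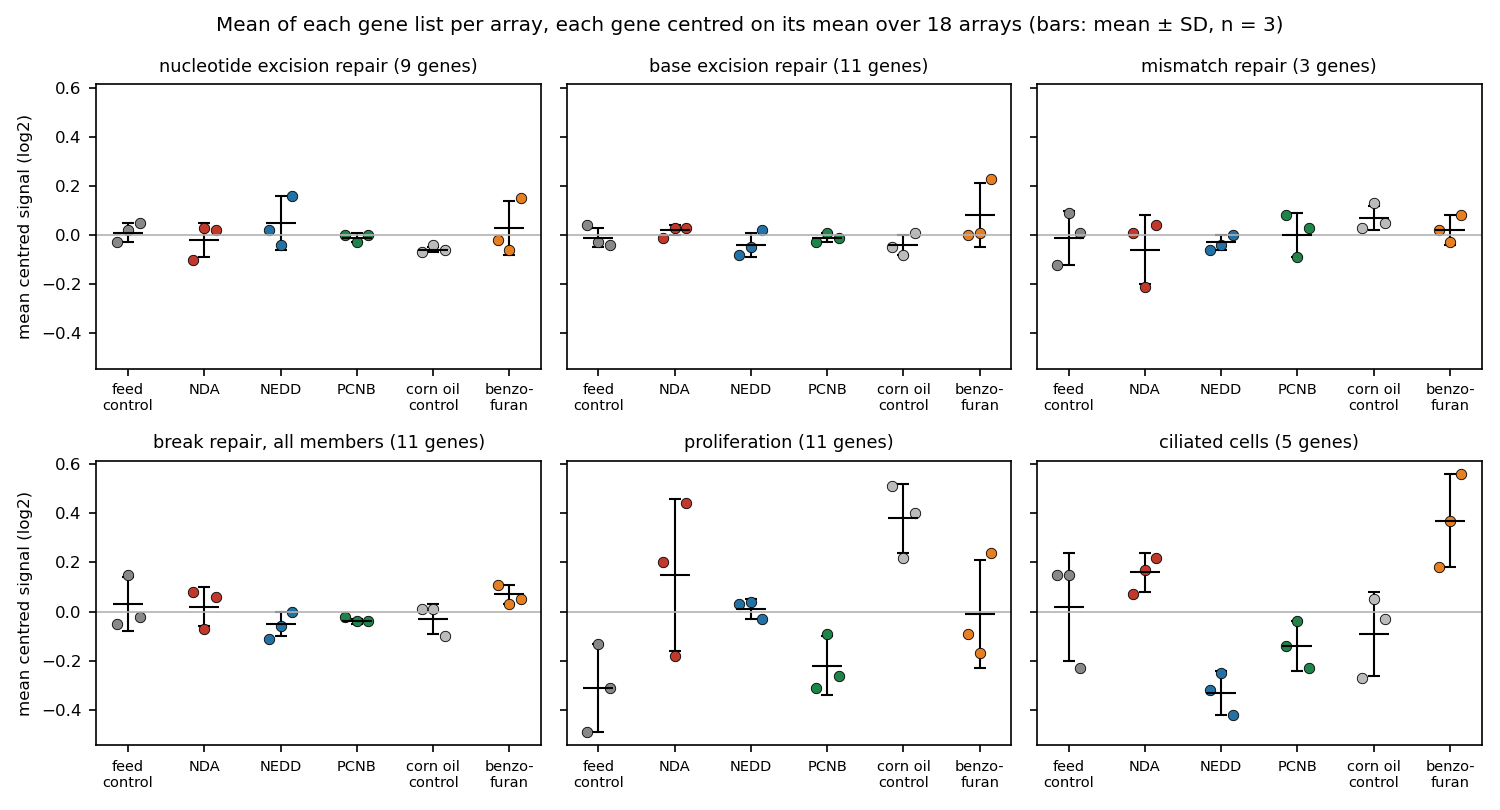
Points are arrays, and the height is the mean over a gene list of log2 signals centred on each gene's mean over 18 arrays, with bars for mean ± SD of 3 arrays. Nucleotide excision, base excision, mismatch and break repair stay between -0.21 and 0.23, whereas the proliferation list spans -0.49 to 0.51. The break repair panel pools smaller lists that spread more widely. End joining (4 genes) ran from -0.26 to 0.42, and homologous recombination and crosslinks (2 genes) from -0.20 to 0.35.

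Break repair held the only repair gene that passed a test. Xrcc5 encodes Ku80, which with Xrcc6 (Ku70) forms the ring that slides onto a broken DNA end and starts end joining. The arrays gave 7.39, 7.25 and 7.26 after NDA and 7.31, 7.10 and 7.67 after benzofuran, where 7.67 is animal 10. NEDD gave 6.72, 6.62 and 6.99 and PCNB 6.95, 6.94 and 6.96. In the controls it was 6.82, 7.25 and 7.06 with feed and 6.81, 7.09 and 6.91 with corn oil. All 6 arrays of the positive treatments lay above all 6 of the negative ones, and the control arrays spread over both. In order of their means the groups ran from NEDD (6.78) through corn oil control (6.94), PCNB (6.95), feed control (7.04) and NDA (7.30) to benzofuran (7.36), and neighbours in that order overlapped except feed control and NDA, whose nearest arrays were both 7.25 at this rounding.

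**Figure D4:**
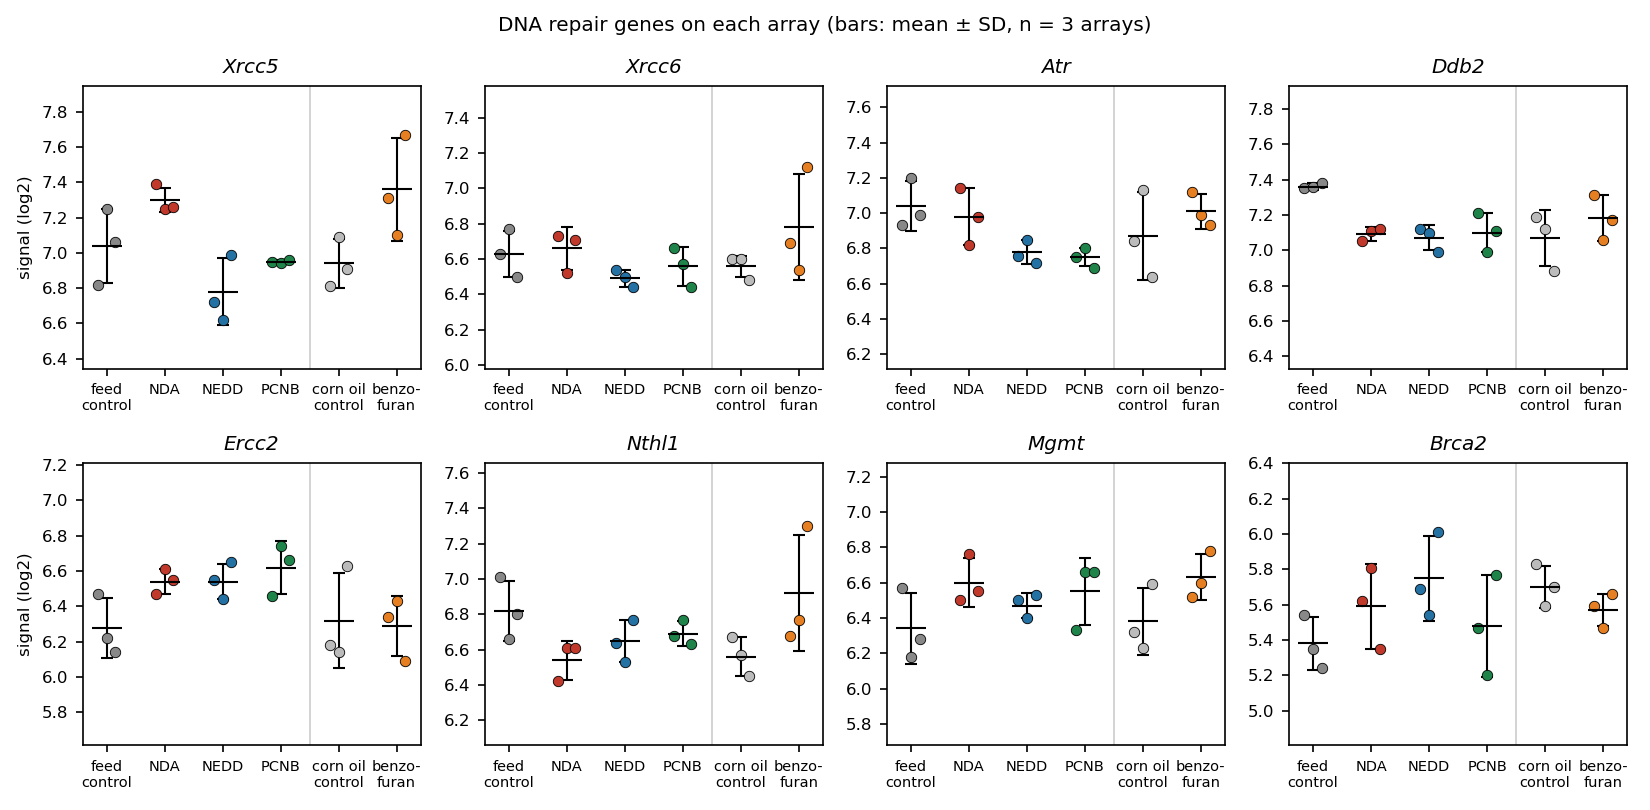
Points are log2 signals of 8 DNA repair genes on single arrays, bars are mean ± SD of 3 arrays, each vertical axis spans 1.6 log2 units, and the grey line parts the feed groups from the gavage groups. Xrcc5 is higher on the 6 arrays of NDA and benzofuran than on the 6 of NEDD and PCNB, and Ddb2 is higher in feed control than on the other 15 arrays.

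The question of the positive against the negative treatments was tested by averaging NDA with benzofuran and NEDD with PCNB, every treatment first set against its own control, and taking the difference. Xrcc5 was 0.52 ± 0.12 higher (1.43-fold, 95% interval 0.27 to 0.77, adjusted p = 0.0206), the single call among 35 repair genes, or 2.86%, beside 3.49% of all genes. A share of that size is no more than the background gives. At an unadjusted p under 0.05 there were 6 (17.1%, beside 18.8% of all genes): Xrcc5, Atr, Lig3, Ddb2, Polb and Xrcc6. The 2 controls enter this contrast with opposite signs. For Ddb2 (0.20 ± 0.09) the control means were 7.36 with feed and 7.07 with corn oil. Its treated means lay closer together, at 7.09 for NDA, 7.18 for benzofuran, 7.07 for NEDD and 7.10 for PCNB. In 24 of the 35 the difference was above 0, with a median of 0.08, beside 55.7% and 0.03 over all genes; without benzofuran animal 10 it was 23 of 35 with a median of 0.05, beside 53.1% and 0.01. Xrcc5 has no other single-symbol probe set to set beside this one.

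The Xrcc5 difference had parts from all 4 treatments: 0.42 ± 0.14 for benzofuran (adjusted p = 0.115) and 0.26 ± 0.14 for NDA (0.568), against -0.27 ± 0.14 for NEDD (0.551) and -0.09 ± 0.14 for PCNB (1.0). Each alone missed the threshold, and the benzofuran difference was 0.27 ± 0.13 without animal 10. The class difference without benzofuran animal 10 was 0.44 ± 0.10 (adjusted p = 0.0243). The call was lost without corn oil animal 22 (0.49, adjusted p = 0.0518) and without feed animal 28 (0.47, adjusted p = 0.0557). The ciliated cell list lay the same way: all 5 of its genes had differences above 0 here (median 0.62) and 3 passed, its defining gene Foxj1 by 0.73 ± 0.17, and its per-array mean was 0.07 to 0.56 on the positive arrays and -0.42 to -0.04 on the negative ones. All 6 B and plasma cell genes also had differences above 0 (median 0.64, 3 passed), with per-array means of 1.04 to 1.82 after NDA, -0.78 to 0.05 after benzofuran and -0.50 to 0.05 on the negative arrays. The part of these lists in the Xrcc5 difference was not tested.

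NDA and NEDD both carry nitrogen on a naphthalene, NDA as a free amino group on each ring and NEDD as an amine that bears an aminoethyl chain, and they were fed at the same 2000 ppm. Between them 0 of 35 repair genes passed, beside 2.12% of all genes; 1 had an unadjusted p under 0.05, beside 12.2%, and 5 (14.3%) did not overlap, beside 23.9%. Xrcc5 was the 1, higher with NDA by 0.53 ± 0.14 (95% interval 0.23 to 0.82, adjusted p = 0.0621) and on all arrays. The other 34 differences lay between -0.24 and 0.28, and 32 of the 35 intervals lay within 1.5-fold, all but those of Xpa, Xrcc5 and Atm.

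Xrcc6, the partner of Xrcc5, did not pass in the comparison of treatment classes. It was at 6.73, 6.52 and 6.71 after NDA, 6.69, 6.54 and 7.12 after benzofuran, 6.54, 6.50 and 6.44 after NEDD and 6.66, 6.57 and 6.44 after PCNB. The class difference was 0.23 ± 0.11 (adjusted p = 0.261), and without animal 10, which held the 7.12, it was 0.15 ± 0.08. The arrays of the classes overlapped for Xrcc6.

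The promoters of these partner genes are shown because their products work as a pair and Xrcc5 was the gene that passed; no test compared the pair. They are the RefSeq windows from 250 bases before to 50 after the start in GRCm38.p6, both on the plus strand, chr1:72307171-72307470 for Xrcc5 and chr15:82016119-82016418 for Xrcc6. Capitals mark matches on either strand to the GC box GGGCGG and to the core GCGTG bound by the aryl hydrocarbon receptor (AhR).
Xrcc5: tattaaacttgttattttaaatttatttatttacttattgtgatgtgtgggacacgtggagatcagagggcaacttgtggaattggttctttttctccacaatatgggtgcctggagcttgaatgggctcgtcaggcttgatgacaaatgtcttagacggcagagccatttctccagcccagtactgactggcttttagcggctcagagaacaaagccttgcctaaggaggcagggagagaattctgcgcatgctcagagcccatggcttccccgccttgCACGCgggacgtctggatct
Xrcc6: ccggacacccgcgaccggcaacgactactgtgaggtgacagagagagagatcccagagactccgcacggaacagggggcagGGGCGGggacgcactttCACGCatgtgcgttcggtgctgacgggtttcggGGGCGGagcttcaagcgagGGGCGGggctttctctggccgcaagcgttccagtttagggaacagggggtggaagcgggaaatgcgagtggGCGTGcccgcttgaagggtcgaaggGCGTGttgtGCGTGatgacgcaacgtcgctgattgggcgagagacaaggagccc
The Xrcc5 window holds 1 match, to GCGTG on the opposite strand (read as CACGC here), 31 to 35 bases from the start, and is 48.0% G and C. The Xrcc6 window holds 7 matches, 4 to GCGTG and 3 to GGGCGG, and is 64.3% G and C. RefSeq windows were matched to 30 of the 39 genes, with 33 windows. Of these, 63.6% hold GCGTG and 66.7% GGGCGG, beside 32.4% and 35.7% of all 32851 windows of this length. The E2F motif TTTNGCGC was in those of Ercc5, Msh3 and Nthl1, or 9.09% beside 1.38% of all windows, the CHR motif TTTGAA in that of Ercc5, or 3.03% beside 17.9%, and the antioxidant response core TGACNNNGC in those of Brca2, Mgmt, Mre11a, Neil1 and Pms2, or 15.2% beside 12.4%. These are matches of letters, and matches of different motifs can overlap.

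Prkdc, the kinase that Ku recruits, was at 7.11, 6.84 and 7.23 after NEDD and 7.28, 7.47 and 7.37 in feed control (-0.31 ± 0.13, adjusted p = 0.495). NDA gave 7.29, 7.07 and 7.19, PCNB 7.46, 7.24 and 7.03, and corn oil control 7.34, 7.25 and 6.95, all with means below that of feed control. Lig4, the ligase of end joining, spread more between animals: 6.48, 6.01 and 6.48 after NDA against 6.65, 6.58 and 6.58 in feed control (-0.28 ± 0.17). With benzofuran it was 6.72, 6.48 and 7.05 against 6.62, 6.60 and 6.12 in corn oil control (0.30 ± 0.17), and 0.15 ± 0.17 without animal 10. All 4 end-joining genes had means below feed control after NEDD, after PCNB and in corn oil control, and above corn oil control after benzofuran, with 0 past the adjusted threshold.

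Among the sensors and kinases, Atr, which answers single-stranded DNA at stalled forks, had the smallest p in limma's F test (adjusted p = 0.442). Their 5 genes had medians of -0.06 for NDA, -0.09 for NEDD, -0.12 for PCNB and 0.13 for benzofuran. Atr in feed control was at 6.93, 7.20 and 6.99. It was lower on all arrays after NEDD (6.76, 6.85 and 6.72; -0.26 ± 0.12) and after PCNB (6.75, 6.80 and 6.69; -0.29 ± 0.12), with adjusted p of 0.524 and 1.0. NDA, at 7.14, 6.82 and 6.98, overlapped with feed control. Corn oil control (6.84, 7.13 and 6.64) and benzofuran (7.12, 6.99 and 6.93) overlapped too. The class difference of Atr was 0.32 ± 0.10 (adjusted p = 0.107), but its other probe set that passed the filter on low signals gave -0.04. A further probe set that did not pass gave 0.01. Against the controls, the one that passed gave 0.08 for NDA, -0.19 for NEDD and -0.02 for PCNB. With benzofuran it gave -0.37, where the probe set used gave 0.15.

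Rad50, Mre11a and Nbn form the complex that trims and holds broken ends, and 0 of the 3 passed in any limma comparison, nor had an unadjusted p under 0.05. Rad50 after NEDD was 8.49, 8.54 and 8.47, above feed control (8.27, 8.42 and 8.33) by 0.16 ± 0.12, while Nbn was 8.28, 8.53 and 8.37 against 8.57, 8.70 and 8.49 (-0.20 ± 0.10). Mre11a differed by 0.00 ± 0.15. Nbn was also lower in corn oil control, 8.38, 8.47 and 8.36, than in feed control (-0.18 ± 0.10, adjusted p = 1.0). With benzofuran Nbn differed by 0.20 ± 0.10 (0.12 ± 0.10 without animal 10) and Mre11a by 0.13 ± 0.15 (0.06 ± 0.17). Rad50 differed by -0.02 ± 0.12 with benzofuran (0.10 ± 0.11 without animal 10). Atm differed from feed control by 0.05 ± 0.23 after NDA, -0.09 ± 0.23 after NEDD and -0.14 ± 0.23 after PCNB. Its benzofuran difference was -0.20 ± 0.23, and it turned to 0.21 ± 0.12 without animal 10.

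Brca2, which loads the recombinase on single strands, was at 5.54, 5.35 and 5.24 in feed control. It was at 5.69, 5.54 and 6.01 after NEDD (0.37 ± 0.15, adjusted p = 0.5) and at 5.83, 5.59 and 5.70 in corn oil control (0.33 ± 0.15, adjusted p = 1.0). NDA gave 5.62, 5.81 and 5.35, PCNB 5.47, 5.20 and 5.77, and benzofuran 5.59, 5.47 and 5.66. Feed control had the lowest mean of the 6 groups. The proliferation list was also lowest in feed control: all 11 of its genes had higher means in corn oil control (median 0.67), with medians of 0.63 for NDA and 0.33 for NEDD, and its defining gene Mki67 was 0.96 ± 0.22 lower with benzofuran than with corn oil (adjusted p = 0.0302), while 0 of the 11 passed in limma without animal 10, with 8 at an unadjusted p under 0.05. The part of proliferation in the Brca2 differences was not tested. Fancd2 overlapped between treated and control arrays in each comparison, with its largest difference at 0.19 ± 0.16 after NDA.

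A further 64 tested repair genes of the same pathways, with the translesion polymerases, were read beside these. None passed limma's adjusted threshold against a control; at an unadjusted p under 0.05 there were 4 after NDA (10.3% of all genes), 8 after NEDD (9.44%), 4 after PCNB (2.97%) and 19, or 29.7%, after benzofuran (19.5%). Without animal 10 the last was 10, or 15.6%, beside 11.4% of all genes. Aptx, which clears failed ligation ends, was at 6.99, 6.76 and 7.51 after benzofuran and at 6.49, 6.50 and 6.59 in corn oil control (0.56 ± 0.14, adjusted p = 0.0554). The other leading genes with benzofuran were Cetn2 (0.41 ± 0.12) and the alkyl-lesion dioxygenase Alkbh3 (0.35 ± 0.10). Without animal 10 the differences were 0.35 ± 0.11, 0.27 ± 0.10 and 0.25 ± 0.09 for Aptx, Cetn2 and Alkbh3. After NDA they were Parp3 (-0.31 ± 0.09), the histone gene H2ax (0.36 ± 0.12) and the translesion polymerase Poli (-0.38 ± 0.14). After NEDD they were the flap nuclease Fen1 (0.54 ± 0.14), Fanci (0.56 ± 0.16), which pairs with Fancd2, and the TFIIH cyclin Ccnh (-0.50 ± 0.16), and after PCNB they were Rev1 (-0.42 ± 0.13), Fanci (0.51 ± 0.16) and Fancg (0.25 ± 0.11). Corn oil control set against feed control gave 0.51 ± 0.16 for Fanci as well, 0.33 ± 0.11 for Fancb and 0.33 ± 0.11 for Fancg.

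Cetn2 was the 1 of the 64 that passed in the class comparison (0.43 ± 0.10, adjusted p = 0.0215), beside 3.49% of all genes. As for the 35, a share of that size is no more than the background gives. Its product, centrin, serves in the Xpc complex and also at centrioles and the base of cilia. It was at 10.09, 9.84 and 9.94 after NDA, 10.14, 10.12 and 10.55 after benzofuran, 9.43, 9.77 and 9.54 after NEDD and 9.80, 9.79 and 9.87 after PCNB, beside 9.89, 9.92 and 9.87 with feed and 9.88, 9.79 and 9.90 with corn oil. Benzofuran was above every other array and NEDD below every other array. Xpc, its partner, differed by 0.10 ± 0.11. The ciliated cell list lay in the same order at its ends, highest in benzofuran (0.18 to 0.56) and lowest in NEDD (-0.42 to -0.25), and its part in the Cetn2 difference was not tested.

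The p53 targets, read as a damage response outside repair, had higher means in 7 of 7 tested genes after NDA (median 0.36), and Phlda3 passed (0.42 ± 0.10, adjusted p = 0.0414). In the same animals 3 of 6 B and plasma cell genes passed (median 1.12; per-array means 1.04 to 1.82, against -0.83 to 0.07 in feed control), as did 1 of 4 macrophage genes, Marco (1.15 ± 0.16). The part of these cells in the p53 and NRF2 lists was not tested. With NEDD the median was 0.15, with PCNB -0.04 and with benzofuran 0.02. Cdkn1a, the defining gene of the list, differed by 0.79 ± 0.20 after NDA (adjusted p = 0.0608) and by 0.59 ± 0.20 after benzofuran (adjusted p = 0.122). Xpc and Ddb2, whose human counterparts are known as p53 targets, had means below feed control after NDA, at -0.04 ± 0.12 and -0.27 ± 0.10. Ddb2 lay about as far below feed control after NEDD (-0.29), after PCNB (-0.26) and in corn oil control (-0.30). Whether p53 acts on either gene in mouse lung was not tested. The antioxidant targets of NRF2 passed in 6 of 6 tested genes after NDA, with a median of 1.53, in the same animals whose 35 repair genes had a median of -0.02.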

How the data were processed

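Per the labels' protocols, 10 µg of lung RNA per animal was labelled and hybridised to Affymetrix Mouse 430_2 arrays. The authors deposited 1 normalized log2 value per probe set and array; the base was judged from the range, and the summary method and normalization are not stated in the labels. Array medians ran from 5.678 to 5.803, within 0.2, so values were kept as deposited. Of 45101 probe sets, 34945 had 1 gene symbol in the platform annotation, 932 had several and 64 were controls. A gene was tested if its probe set with the highest mean exceeded the 40th percentile of signal on 3 or more arrays.

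Group means were fitted to 18 arrays with limma 3.58.1 in R 4.3.3 (12 residual degrees of freedom), with two-sided p-values adjusted by Benjamini-Hochberg over 13434 genes. The procedure was tested on simulated data. The members and gene lists were chosen with earlier results of these data known. Members given on every array are those called, the 4 with the smallest p against each control and the 1 with the smallest F-test p of each pathway; others were added after their values were seen. For other repair genes these are the called ones and the 3 with the smallest p. The number of arrays limits the precision; permuting 3 animals against 3 cannot give a p under 0.1. RNA integrity numbers were 8.3 to 9.4 where given (15 arrays). The absorbance ratio A260/A280 was 2.66 and 2.58 for NEDD animals 12 and 15 and 2.87 for PCNB animal 20. On all other arrays it was 1.80 to 2.25. Its part in the class contrast was not tested. Alternatives are listed at the end.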

Additional observations from a re-analysis of the deposited data

Results flagged for a closer look

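Xrcc5 and Cetn2 differed between the positive and the negative treatments by a test of the difference itself, the class contrast in limma. They were 1 of 35 and 1 of 64 repair genes, beside 3.49% of all genes that passed, so these counts are no more than the background gives. For Xrcc5 the difference was 0.52 ± 0.12 (adjusted p = 0.0206), and 6 of 6 positive arrays lay above 6 of 6 negative arrays. For Cetn2 it was 0.43 ± 0.10 (adjusted p = 0.0215), and without benzofuran animal 10 it was 0.36 ± 0.08 (adjusted p = 0.0183). In this contrast the feed and corn oil controls enter with opposite signs, and for Xrcc5 they differed by -0.10 ± 0.14 (corn oil minus feed).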

How the results depend on the processing

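The 21 differences named by rule were recomputed under alternative settings, 15 to 27 for each difference. Of the 345 values this gave in all, 344 kept their direction and 339 also their side of the threshold. The exception in direction was Polb with benzofuran, -0.08 (adjusted p = 0.81) with the mean of all probe sets. The Xrcc5 class difference lay between 0.44 and 0.58 over 27 alternatives, with adjusted p from 0.00162 to 0.0557, and passed in 25 of them. Counts of repair genes that passed changed as follows. Array weights gave 3 for NDA against NEDD (Apex1, Lig3 and Xrcc5), 4 for the class contrast (Atr, Ddb2, Lig3 and Xrcc5) and 5 for any difference (Apex1, Atr, Ercc2, Lig3 and Xrcc5), while the calls over all genes rose to 1813, 1873 and 3167. A covariate for 3' bias gave 2 for benzofuran (Nthl1 and Xrcc5), 3 for NDA against NEDD (Neil1, Rad50 and Xrcc5) and 1 for any difference (Xrcc5). Fitting only the groups compared gave 1 for NDA against NEDD (Xrcc5). Leaving out 1 array gave 0 to 2 for the class contrast (2, Atr and Xrcc5, without corn oil animal 24), 0 to 1 for NDA against NEDD (1 without NEDD animal 15), 0 to 1 for benzofuran and 0 to 1 for any difference (1 without benzofuran animal 8 in each); the gene was Xrcc5. The cause was not tested. Calls over all genes are given here only for array weights, so the other counts cannot be set against the background. Brca2 did not enter the stricter filter. Other probe sets of the repair genes shared the sign of the one used in 11 of 23 cases in the class contrast and in 56.5% to 78.3% elsewhere. No paired analysis was possible because the animal numbers are not shared between groups. With 3 arrays a group, the median 95% interval reached 0.27 to each side (0.23 for the class contrast), with single genes from 0.16 to 0.47 (0.14 to 0.41).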
